A study of Rattus norvegicus with 6 samples.

Results

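The Toll-like receptors Tlr1 to Tlr9 and their shared adaptor Myd88 were followed in healing holes of the rat skull that had been filled with a hydrogel. The members were the rows of the gene table whose name equals one of these symbols, and all 10 were found among 34045 genes. The tested material was the CGG-Cit hydrogel (3 libraries), set against the CGG hydrogel (3 libraries), names that the labels do not spell out; by its title, the study concerns biohydrogels built with a tricarboxylic acid cycle metabolite. Both groups were wild-type male Sprague-Dawley rats killed at week 4 after surgery, RNA came from the whole minced defect area, and no unfilled defect is among the samples. The comparison asks how the defect tissue differs between the gels. The labels do not say whether libraries of a group are separate animals, so the tests weigh the difference against a spread that may be technical.

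Toll-like receptors are innate sensors of microbial products and of molecules released by damaged cells. Tlr1, Tlr2, Tlr4, Tlr5 and Tlr6 sit on the cell surface and bind lipids or proteins, whereas Tlr3, Tlr7, Tlr8 and Tlr9 work in endosomes and bind nucleic acids. Every receptor of this set except Tlr3 signals through Myd88, which recruits the Irak kinases and leads to NF-kB and interferon regulatory factors. In healing bone such receptors are known mainly from macrophages, dendritic cells, neutrophils and B cells.

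Expression was given as FPKM, fragments per kilobase of gene scaled for library size. The libraries held 14744207 to 16224920 assigned fragments, and the scaling did not follow these totals. In CGG 1, with 15054925 fragments, 1 fragment in 1 kb counted 0.0627 FPKM, against 0.064 FPKM in CGG 2 with 16224920. Fold changes are differences of log2(FPKM + 1), CGG-Cit less CGG, and this scale makes the change of a low gene look smaller than it is. The threshold was a limma adjusted p of 0.05, taken over the 15965 genes whose mean reached 0.5 FPKM. Markers of the tissue differed strongly between the groups. Summed levels of 11 macrophage genes, of which 8 rose, were 1357 to 1972 FPKM in CGG-Cit and 780.5 to 947.5 FPKM in CGG. Those of 13 neutrophil genes, of which all 12 tested fell, were 2409 to 6300 FPKM in CGG-Cit and 15120 to 17101 FPKM in CGG. Over all genes tested, 7.75% were called higher in CGG-Cit and 9.78% lower. Osteoblast markers were present in every library (4237 to 7219 FPKM in CGG-Cit, 8663 to 12779 FPKM in CGG, summed over 8 genes), as the label of bone defect calls for. Called lower in CGG-Cit were 5 of these 8 genes and all 6 erythroid markers tested, where 9.78% of all genes were. Skeletal muscle markers summed to 40.3 to 333.8 FPKM in CGG-Cit and to 6498 to 8244 FPKM in CGG, and skin epithelium markers to 1.5 to 1.9 FPKM in CGG-Cit and 1.5 to 1.8 FPKM in CGG. CGG-Cit 3 was the CGG-Cit library most like CGG.

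Of the 10 members, Tlr3, Tlr4, Tlr8 and Tlr9 rose in CGG-Cit and 0 fell with limma, where 7.75% of all genes tested were called higher and 9.78% lower. At an unadjusted p under 0.05, 7 members were higher and 1 lower. Over all 15965 genes tested, 2668 were higher and 2976 lower at this threshold. With voom on recovered reads, limma called 5 members higher and 0 lower (9.36% and 8.53% of all genes). All 10 passed the filter on low values. The 3 CGG-Cit libraries all lay above the 3 CGG libraries for 8 members and all below for Tlr5, while Myd88 overlapped; such separation upward was found in 19.6% of all genes tested and downward in 22.1%. The median log2 fold change of the members was 0.74, against 0.0023 over all genes tested. In bulk tissue, more cells of a type and more RNA per cell cannot be told apart. The count of 4 depended on single libraries. Leaving out CGG-Cit 1 gave 3 members higher (3.23% of all genes), CGG-Cit 2 gave 1 (0.933%) and CGG-Cit 3 gave 5 (8.22%), with Tlr5 then lower (10.2% of all genes). Leaving out CGG 1 gave 2 (3.36%), CGG 2 gave 1 (2.63%) and CGG 3 gave 0 (0.764%). With TPM scaling 7 members were higher (13.8% of all genes), with the replicate number as a block 2 (3.83%) and with no filter on low values 2 (3.79%). Higher calls made up 44.2% of all calls as reported and 69.9% with TPM scaling.

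**Figure D1:**
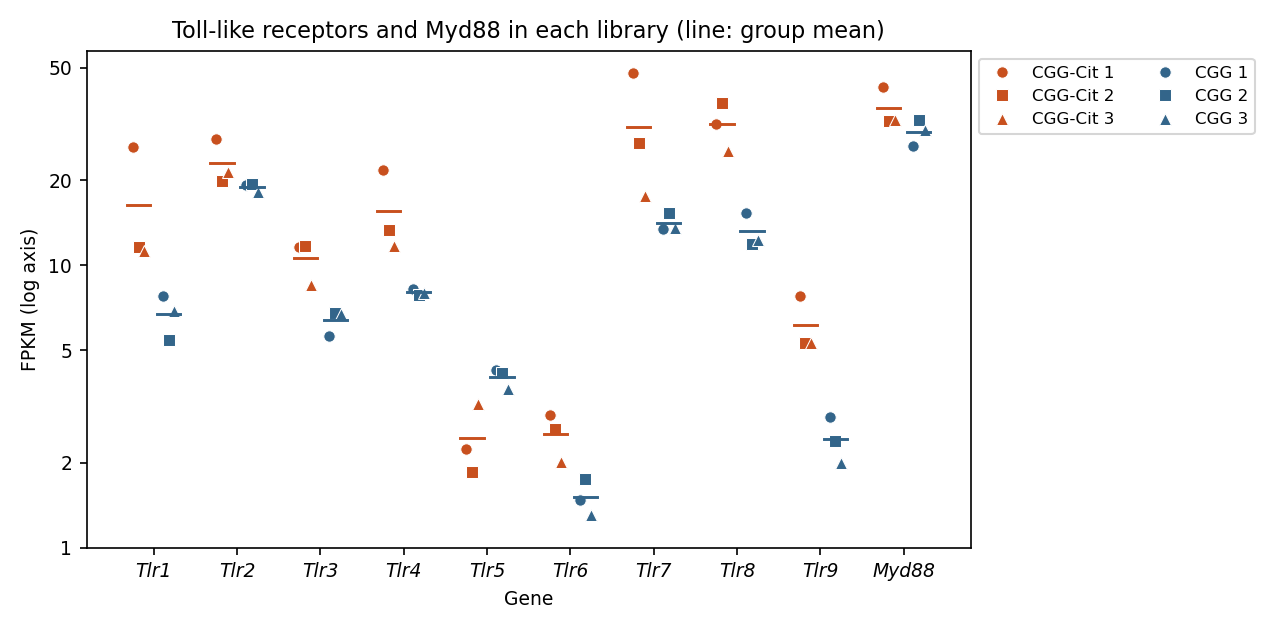
FPKM of each receptor and of Myd88 on a log axis, with 1 symbol per library, CGG-Cit left of CGG and a line at the group mean. The CGG-Cit libraries lie above all CGG libraries for 8 genes and below them for Tlr5, and CGG-Cit 1 is highest for Tlr1, Tlr2, Tlr4, Tlr6, Tlr7, Tlr9 and Myd88.

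Among the endosomal receptors, Tlr8, in humans a sensor of single-stranded RNA, had the largest log2 fold change on the log2(FPKM + 1) scale. With a pseudocount of 0.1 the value was 1.24, against 1.30 for Tlr9, and with voom 1.29, against 1.37. The gene Tlr8 is listed on chromosome X from 28539158 to 28562803, in coordinates for which the table gives no build. Tlr8 had 31.6, 37.3 and 25.4 FPKM in CGG-Cit 1, 2 and 3, against 15.3, 11.9 and 12.3 FPKM in CGG 1, 2 and 3. CGG-Cit 2 was the highest library and the groups were well apart. It rose by 1.19 ± 0.165 (SE; limma adjusted p = 0.0116), and the mean was 2.39-fold that of CGG. The values rest on 627 to 1949 fragments per library. The call held in 15 of 16 alternative fits and ended without CGG 3 (adjusted p = 0.0544). The RefSeq promoter window of Tlr8 (250 bases before to 50 after the annotated start; GRCr8, chrX:30708476-30708775, plus strand) is shown because the call of Tlr8 held in the most alternative fits, with GAGGAA, the core bound by the myeloid factor PU.1, in capitals, written TTCCTC where it lies on the opposite strand.
Tlr8: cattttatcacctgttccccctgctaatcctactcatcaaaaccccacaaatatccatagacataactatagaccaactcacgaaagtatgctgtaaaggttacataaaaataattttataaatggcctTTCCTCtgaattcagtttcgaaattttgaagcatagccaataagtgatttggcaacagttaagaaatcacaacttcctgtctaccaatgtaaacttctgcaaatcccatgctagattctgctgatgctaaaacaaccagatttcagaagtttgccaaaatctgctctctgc

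Tlr7, the neighbour of Tlr8 on chromosome X (28486869 to 28512957), is a sensor of single-stranded RNA. It had 47.9, 27.0 and 17.6 FPKM in CGG-Cit 1, 2 and 3, against 13.4, 15.3 and 13.5 FPKM in CGG 1, 2 and 3. The CGG-Cit libraries were spread over a wide range, with CGG-Cit 3 just above the highest CGG library. The log2 fold change was 0.97 ± 0.325 (SE) with a limma adjusted p of 0.0852, so Tlr7 did not pass. It passed without CGG-Cit 3 (adjusted p = 0.0195) and with values rescaled to equal sums (TPM; 0.0438), and without CGG-Cit 1 its log2 fold change was 0.60 (adjusted p = 0.103). Siglech, a marker of the plasmacytoid dendritic cells that carry much Tlr7 and Tlr9, was likewise highest in CGG-Cit 1, but its groups overlapped, with 8.87, 3.58 and 1.6 FPKM in CGG-Cit 1, 2 and 3 and 1.63, 1.33 and 1.24 FPKM in CGG 1, 2 and 3 (limma adjusted p = 0.154). The part of these cells in the Tlr7 values was not tested.

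Tlr9, which binds unmethylated CpG DNA, had 7.75, 5.32 and 5.32 FPKM in CGG-Cit 1, 2 and 3, against 2.89, 2.38 and 2.0 FPKM in CGG 1, 2 and 3. All CGG-Cit libraries were clearly above CGG, with CGG-Cit 1 the highest. It rose by 1.05 ± 0.18 (SE; limma adjusted p = 0.0179), a 2.53-fold ratio of means and the largest of the members on the linear scale. The call ended without CGG 2 (adjusted p = 0.053), CGG 3 (0.0672) or CGG-Cit 2 (0.0553). B cells also express Tlr9, and 3 of 8 B and plasma cell markers fell in the same libraries (9.78% of all genes did), with summed levels of 828.4 to 1034 FPKM in CGG-Cit and 974.3 to 1117 FPKM in CGG. Their part in the Tlr9 values was not tested. The Tlr9 window (GRCr8, chr8:115743157-115743456, plus strand) holds GAGGAA at 2 places, starting 115 bases before the annotated start and at base 6 after it.
Tlr9: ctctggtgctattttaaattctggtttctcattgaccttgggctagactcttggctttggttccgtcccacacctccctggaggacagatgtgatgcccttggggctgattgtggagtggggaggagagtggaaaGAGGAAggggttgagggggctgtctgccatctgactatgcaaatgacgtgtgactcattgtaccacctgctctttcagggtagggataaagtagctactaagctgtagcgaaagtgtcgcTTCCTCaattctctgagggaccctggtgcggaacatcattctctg

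Tlr3, which binds double-stranded RNA and signals through Ticam1 instead of Myd88, had 11.6, 11.7 and 8.5 FPKM in CGG-Cit 1, 2 and 3, against 5.62, 6.78 and 6.73 FPKM in CGG 1, 2 and 3. CGG-Cit 3 was the lowest of its group, and the groups did not overlap. It rose by 0.65 ± 0.15 (SE; limma adjusted p = 0.0327). The call ended in every fit that left out a library, CGG-Cit 3 excepted (adjusted p = 0.072 to 0.113), with the replicate number as a block (0.0737) and without the filter on low values (0.0543). Its window (GRCr8, chr16:53554666-53554965, plus strand) has 1 GAGGAA match, 7 bases before the annotated start on the opposite strand.
Tlr3: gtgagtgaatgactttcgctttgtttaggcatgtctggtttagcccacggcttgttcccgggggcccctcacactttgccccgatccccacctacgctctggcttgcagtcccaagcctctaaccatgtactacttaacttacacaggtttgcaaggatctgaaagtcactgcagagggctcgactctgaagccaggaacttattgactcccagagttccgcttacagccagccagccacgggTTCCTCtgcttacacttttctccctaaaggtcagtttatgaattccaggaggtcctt

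Of the cell-surface receptors only Tlr4 passed. Tlr4, which with its partner Ly96 and the co-receptor Cd14 binds bacterial lipopolysaccharide, is listed on chromosome 5 from 82587420 to 82601052. It had 21.7, 13.3 and 11.6 FPKM in CGG-Cit 1, 2 and 3, against 8.24, 7.85 and 7.96 FPKM in CGG 1, 2 and 3. The CGG libraries were nearly level, while CGG-Cit 1 stood well above the other CGG-Cit libraries. Tlr4 rose by 0.83 ± 0.216 (SE; limma adjusted p = 0.0441). The call ended when any CGG library or CGG-Cit 2 was left out (adjusted p = 0.0992 to 0.125), with the replicate number as a block (0.0621) and without the filter on low values (0.0722), and it held without CGG-Cit 1 (0.0446), where the log2 fold change was 0.58. The Tlr4 window (GRCr8, chr5:85160997-85161296, plus strand) has 2 GAGGAA matches on the opposite strand, starting 67 and 55 bases before the annotated start.
Tlr4: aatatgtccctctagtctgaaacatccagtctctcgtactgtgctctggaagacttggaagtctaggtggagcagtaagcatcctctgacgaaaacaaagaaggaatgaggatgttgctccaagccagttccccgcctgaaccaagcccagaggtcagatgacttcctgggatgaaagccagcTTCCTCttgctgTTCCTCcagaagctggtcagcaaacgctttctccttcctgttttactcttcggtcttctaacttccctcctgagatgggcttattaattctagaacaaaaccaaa

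Tlr2 and its partners Tlr1 and Tlr6 bind bacterial lipopeptides. Tlr2 had 27.9, 19.9 and 21.3 FPKM in CGG-Cit 1, 2 and 3, against 19.2, 19.4 and 18.2 FPKM in CGG 1, 2 and 3, a narrow gap with CGG-Cit 2 only just above CGG 2. Its log2 fold change was 0.25, with a 95% interval of -0.069 to 0.58 and a limma adjusted p of 0.229, and it passed in 0 of 16 alternative fits. Tlr1, the partner for triacylated lipopeptides, had 26.1, 11.6 and 11.2 FPKM in CGG-Cit 1, 2 and 3 and 7.79, 5.42 and 6.88 FPKM in CGG 1, 2 and 3. CGG-Cit 1 was far above the other libraries, and the log2 fold change of 1.08 ± 0.32 (SE) did not pass (limma adjusted p = 0.0629). Tlr1 passed with TPM scaling (0.0397), and its log2 fold change was 0.70 without CGG-Cit 1 (0.0587). Tlr6, the partner for diacylated lipopeptides, had 2.96, 2.63 and 2.01 FPKM in CGG-Cit 1, 2 and 3 and 1.48, 1.75 and 1.30 FPKM in CGG 1, 2 and 3. Its log2 fold change of 0.49 did not pass either (limma adjusted p = 0.0835), though it did under TPM rescaling (0.0472) and voom (0.0355). Tlr1 (45062662 to 45081991) and Tlr6 (45024351 to 45046446) lie side by side on chromosome 14 and are close paralogs; whether reads were shared between them was not measured, so the values of each are uncertain.

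Tlr5, the flagellin receptor, was the member with the opposite direction. It had 2.23, 1.86 and 3.24 FPKM in CGG-Cit 1, 2 and 3, against 4.27, 4.15 and 3.66 FPKM in CGG 1, 2 and 3. The groups were apart, but CGG-Cit 3 came close to CGG 3. The log2 fold change was -0.56 ± 0.175 (SE) with a limma adjusted p of 0.0692, and Tlr5 passed without CGG-Cit 3 (0.0269). Neutrophil markers were lower in CGG-Cit too, and CGG-Cit 3 was the CGG-Cit library nearest to CGG in both measures. Their mean centred log2 level was -1.05, -1.64 and -0.19 in CGG-Cit 1, 2 and 3 and 0.93, 1.04 and 0.91 in CGG 1, 2 and 3. Of the 13 markers all 12 tested fell (median log2 fold change -1.94), where 9.78% of all genes did, and Ltf was at or near 0. The part of neutrophils in the Tlr5 values was not tested. The windows of Tlr1, Tlr2 and Myd88, whose fold changes were positive, have no GAGGAA match, and those of Tlr6 and Tlr7, which did not pass, have 1 each. The Tlr5 window (GRCr8, chr13:97182910-97183209, plus strand), shown because its gene went the other way, has no GAGGAA match either.
Tlr5: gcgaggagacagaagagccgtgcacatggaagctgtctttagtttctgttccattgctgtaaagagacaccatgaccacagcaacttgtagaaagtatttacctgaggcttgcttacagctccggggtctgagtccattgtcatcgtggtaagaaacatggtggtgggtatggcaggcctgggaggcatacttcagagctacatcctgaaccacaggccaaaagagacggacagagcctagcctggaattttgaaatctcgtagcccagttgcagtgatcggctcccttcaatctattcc

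Myd88 itself, listed on chromosome 8 from 128022473 to 128026841, had 42.7, 32.4 and 32.6 FPKM in CGG-Cit 1, 2 and 3, against 26.4, 32.7 and 29.9 FPKM in CGG 1, 2 and 3. CGG 2 lay above CGG-Cit 2 and CGG-Cit 3, so the groups overlapped. The log2 fold change was 0.26, with a 95% interval of -0.074 to 0.59 and a limma adjusted p of 0.234, and it passed in 0 of 16 alternative fits. The genes whose centred log2 profile over the 6 libraries lay closest to Myd88 were Gsdmd (root mean square difference 0.0173), Czib (0.0348) and Emc3 (0.0359). For Tlr7, which had the highest mean of Tlr1 to Tlr9 over the 6 libraries pooled though not within either group, they were Zfand2a (0.078), Flvcr2 (0.107) and Klra22 (0.107). The search ran over all named protein-coding genes tested, so near matches were bound to turn up. Whether any of these genes is linked to Myd88 or Tlr7 was not tested.

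**Figure D2:**
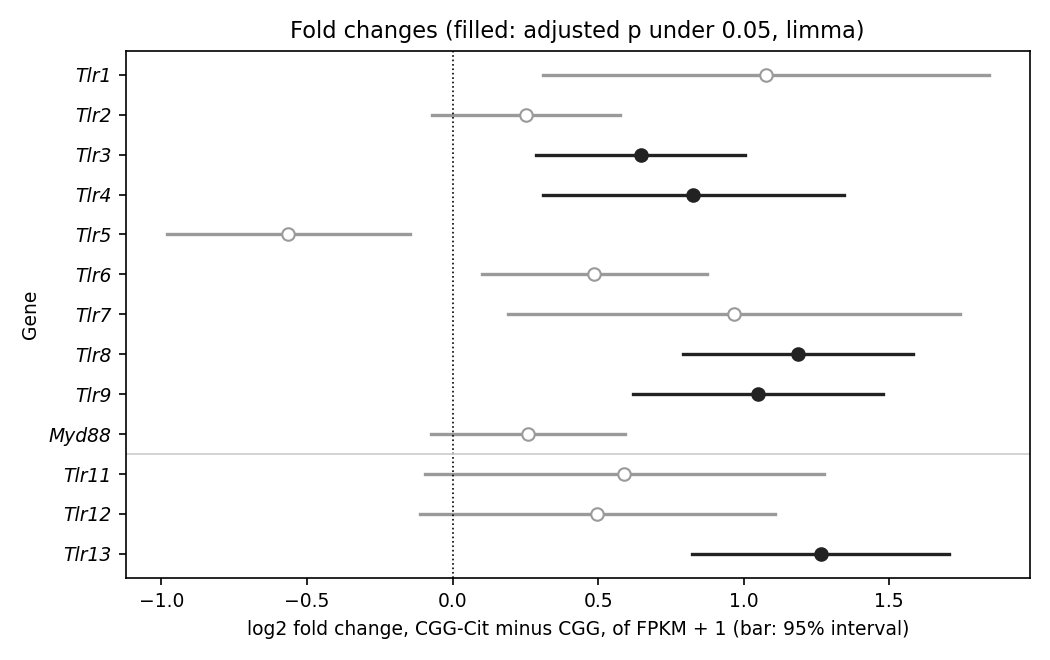
log2 fold change of each member and, under the grey line, of 3 further rodent receptors, with 95% intervals from limma, filled where the adjusted p was under 0.05. Tlr3, Tlr4, Tlr8, Tlr9 and Tlr13 are filled, and Tlr5 is the only point left of 0.

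GAGGAA occurred in the windows of 6 of 10 members (Tlr3, Tlr4, Tlr6, Tlr7, Tlr8 and Tlr9) and in 27.6% of 33469 RefSeq promoter windows of the same length. An interferon response motif (GAAA, any 2 bases, GAAA) was found in the window of Myd88 and in 3.92% of all windows. An NF-kB motif (GGGA, any base, TT, any base, CC) was found in that of Tlr2 and in 1.11% of all. Both strands were searched, no member held 2 of the 3 motifs, and such matches describe letters and not bound sites.

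FPKM is per length, so levels can be ordered across genes. In CGG-Cit the means ran Myd88, Tlr8, Tlr7, Tlr2, Tlr1, Tlr4, Tlr3, Tlr9, Tlr6 and Tlr5, and only Tlr3 and Tlr9, and Tlr9 and Tlr6, were neighbours whose libraries did not overlap. In CGG they ran Myd88, Tlr2, Tlr7, Tlr8, Tlr4, Tlr1, Tlr3, Tlr5, Tlr9 and Tlr6, and only Tlr7 and Tlr8, and Tlr1 and Tlr3, overlapped. Among Tlr1 to Tlr9 the highest mean was thus that of Tlr8 in CGG-Cit (31.4 ± 5.99 FPKM) and that of Tlr2 in CGG (18.9 ± 0.632 FPKM; SD, n = 3 each).

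The summed level of Tlr1 to Tlr9 was 179.8, 130.6 and 106.2 FPKM in CGG-Cit 1, 2 and 3, against 78.3, 74.9 and 72.5 FPKM in CGG 1, 2 and 3. Endosomal receptors made up 55.0%, 62.3% and 53.5% of it in CGG-Cit and 47.6%, 48.5% and 47.6% in CGG. The share of Tlr2 averaged 16.9% ± 2.72 in CGG-Cit and 25.2% ± 0.647 in CGG, and that of Tlr5 1.9% ± 0.994 in CGG-Cit and 5.35% ± 0.266 in CGG (SD, n = 3 each). The shares show that the receptors changed unequally. Tlr8 held 17.6%, 28.6% and 23.9% in CGG-Cit 1, 2 and 3, whereas Tlr7 held 26.6%, 20.7% and 16.6% there, so the pair of neighbouring genes did not follow the same library order.

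**Figure D3:**
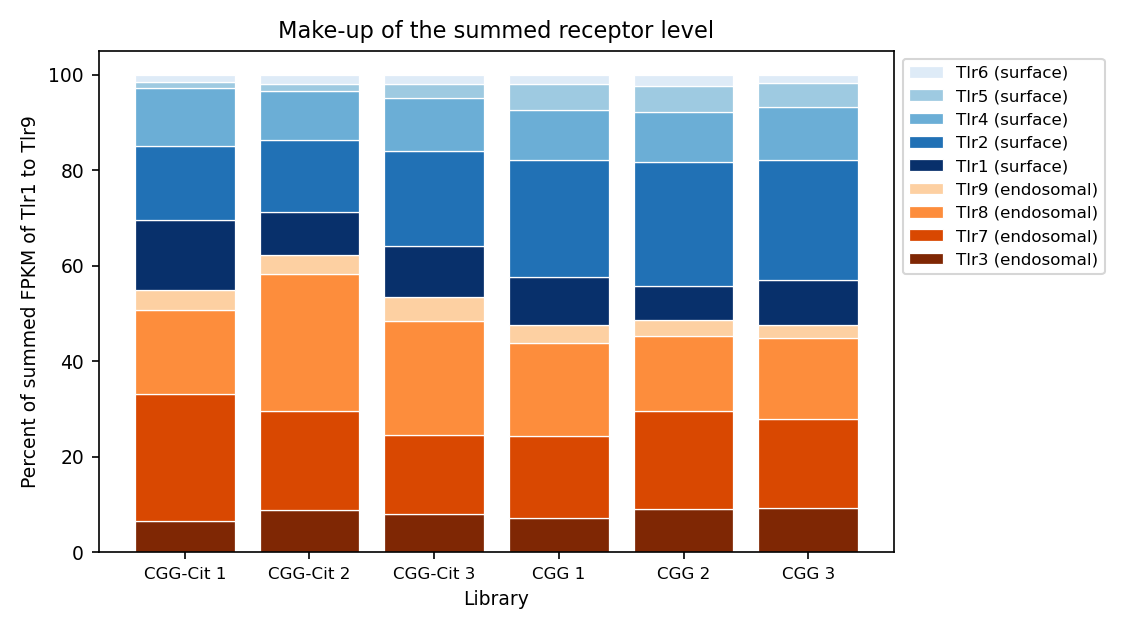
Percent of the summed FPKM of Tlr1 to Tlr9 held by each receptor in every library, endosomal receptors in orange at the bottom and surface receptors in blue above. The orange part reaches 53.5% to 62.3% in the CGG-Cit libraries and 47.6% to 48.5% in the CGG libraries.

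Macrophage markers also differed, so each member was set against them on the log2 scale. The log2 fold changes of the 11 macrophage markers ran from -0.49 to 1.59, a range that holds the 1.19 of Tlr8. Relative to the mean of these markers, Tlr8 was higher in every CGG-Cit library than in any CGG library, by 0.34 between the group means. This separation was found for 0.67% of all genes tested. Tlr2, Tlr5, Tlr6 and Myd88 were lower in this measure, which held for 77.1% of all genes. Tlr1, Tlr3, Tlr4, Tlr7 and Tlr9 overlapped. Relative to Ptprc, the CD45 gene of all leucocytes, 5 members (Tlr1, Tlr4, Tlr7, Tlr8 and Tlr9) were higher without overlap, where 2.28% of all genes were, and Tlr5 was lower, where 34% were. For Tlr8 the groups nearly touched in this measure, at -2.264 in CGG-Cit 1 against -2.281 in CGG 1. Ptprc itself had 155.7, 102.4 and 77.3 FPKM in CGG-Cit 1, 2 and 3 and 78.4, 72.8 and 77.5 FPKM in CGG 1, 2 and 3. These ratios are descriptions, and no test was made on them. Markers of other cell types that can carry the receptors moved in both directions, where 7.75% of all genes tested rose and 9.78% fell. All 12 neutrophil markers tested fell, and so did 3 of 8 B and plasma cell markers. Of 9 dendritic cell markers 4 rose, with summed levels of 1098 to 1848 FPKM in CGG-Cit and 561.3 to 781.7 FPKM in CGG. Of 6 fibroblast markers 5 rose, with 1603 to 1880 FPKM in CGG-Cit and 798.3 to 1352 FPKM in CGG. The part of these cells in the receptor values was not tested.

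Rodents have further Toll-like receptors. Tlr13, which in the mouse recognises bacterial ribosomal RNA in endosomes, is listed under the clone name AABR07039446.2, a synonym in RefSeq. Its mean was above that of every member in CGG-Cit, and in CGG above those of Tlr1 to Tlr9 but below that of Myd88. It had 62.2, 60.9 and 39.0 FPKM in CGG-Cit 1, 2 and 3, against 20.3, 21.8 and 22.3 FPKM in CGG 1, 2 and 3, and rose by 1.26 ± 0.184 (SE; limma adjusted p = 0.0128). The call ended without CGG 3 (adjusted p = 0.0547) or CGG-Cit 2 (0.0529). Tlr11 and Tlr12, receptors for a protozoan profilin in the mouse, were low. Tlr11 averaged 1.7 ± 1.08 FPKM in CGG-Cit and 0.714 ± 0.196 FPKM in CGG, and Tlr12 1.19 ± 0.626 FPKM in CGG-Cit and 0.526 ± 0.263 FPKM in CGG (SD, n = 3 each; limma adjusted p = 0.195 and 0.214).

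The receptors need proteins that load, carry and process them. Of 12 co-receptor and chaperone genes tested, 7 rose (median log2 fold change 0.95), set against 7.75% of all genes. Lgmn, Ctsb and Ctsl, lysosomal proteases that cut endosomal receptors into their active form, rose by 1.62, 1.28 and 1.25 (limma adjusted p = 0.0115, 0.0143 and 0.00611). Unc93b1, which carries endosomal receptors out of the endoplasmic reticulum, had 168.6, 140.0 and 108.2 FPKM in CGG-Cit 1, 2 and 3, against 66.0, 75.9 and 72.4 FPKM in CGG 1, 2 and 3 and was named after its values were seen. Lysosomal proteases are also abundant in macrophages, whose markers rose in 8 of 11 cases (7.75% of all genes did), and their part was not tested. Ctsl passed without any of the libraries, while Lgmn and Ctsb did not without CGG 3 (adjusted p = 0.0535 and 0.0616) or CGG-Cit 2 (0.0517 and 0.0561).

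Of 17 adaptors and proximal kinases 1 rose (median 0.09), a share near the 7.75% of all genes called higher. This was Ticam2, the bridge between Tlr4 and the adaptor Ticam1, with 6.91, 7.74 and 5.59 FPKM in CGG-Cit 1, 2 and 3, against 3.21, 4.34 and 3.51 FPKM in CGG 1, 2 and 3 (limma adjusted p = 0.0274). The call ended without any library but CGG-Cit 3 (adjusted p = 0.0507 to 0.0964) and without the filter on low values (0.051). Irak2, a kinase downstream of Myd88, and Pik3ap1, an adaptor to phosphoinositide kinase, stood at 0.87 and 0.65 without passing (limma adjusted p = 0.0839 and 0.0862). Both passed without CGG-Cit 3 (0.0168 and 0.037).

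Of 13 NF-kB and IRF effectors 1 rose (median 0.23), again near the 7.75% of all genes. Irf5, a transcription factor that acts with Myd88 in macrophages, had 72.3, 56.2 and 47.3 FPKM in CGG-Cit 1, 2 and 3, against 30.1, 31.5 and 30.6 FPKM in CGG 1, 2 and 3, and rose by 0.89 ± 0.154 (SE; limma adjusted p = 0.0182). Its call ended when any CGG library or CGG-Cit 2 was left out (adjusted p = 0.0517 to 0.0697). The NF-kB subunits Rela and Relb stood at 0.23 and 0.65 (limma adjusted p = 0.104 and 0.107), and Relb passed without CGG-Cit 3 (0.0198).

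Of 14 negative regulators 3 rose (median 0.21), where 7.75% of all genes did. Dusp1, a phosphatase of MAP kinases, rose by 0.90 (limma adjusted p = 0.0123), Tnfaip3, the ubiquitin-editing enzyme A20 that restrains NF-kB, by 0.96 (0.0311) and Tnip1, its binding partner, by 0.55 (0.0484). Dusp1 did not pass without CGG 3 (0.0551) or CGG-Cit 2 (0.053), and Tnfaip3 and Tnip1 did not without any library but CGG-Cit 3 (0.0562 to 0.124), with the block (0.0734 and 0.071) or with no filter (0.0524 and 0.0709).

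Of 17 cytokine and inducible target genes tested 2 rose and 1 fell (median 1.03), where 7.75% of all genes rose and 9.78% fell. Summed over the 22 genes matched, levels were 1341, 627 and 331 FPKM in CGG-Cit 1, 2 and 3. In CGG 1, 2 and 3 they were 202, 386 and 379 FPKM, so the sums of the groups overlapped. The CGG-Cit libraries all lay above CGG for 7 of the 17, against 19.6% of all genes, and all below for 1, against 22.1%. Ccl3, a macrophage chemokine, rose by 1.70 (limma adjusted p = 0.00413) and passed without each library in turn. Cd86, a co-stimulator on antigen-presenting cells, rose by 1.03 (0.0248), and Il12a, a subunit of interleukin 12, had 0.856, 0.847 and 1.76 FPKM in CGG-Cit 1, 2 and 3, against 3.67, 2.91 and 3.80 FPKM in CGG 1, 2 and 3 (0.0217). The calls of Cd86 and Il12a ended without any library but CGG-Cit 3 (adjusted p = 0.051 to 0.0869). Tnf, a textbook target named after its values were seen, rested on at most 3 fragments in any library and was not tested.

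Of 12 genes of endogenous ligands 1 rose and 2 fell (median 0.078), where 7.75% of all genes rose and 9.78% fell. S100a8 and S100a9, neutrophil proteins reported to activate Tlr4, fell by 2.16 and 2.10, and Dcn, a matrix proteoglycan reported to bind Tlr2 and Tlr4, rose by 0.84 (limma adjusted p = 0.0124, 0.0171 and 0.0407). S100a8 did not pass without CGG 3 (0.0566), S100a9 without any library but CGG 1 and CGG-Cit 3 (0.0527 to 0.0666), and Dcn without any library but CGG 1 (0.0779 to 0.119), with the block (0.0794) or with no filter (0.0729). Of 6 other receptors that signal through Myd88 1 rose (median 0.063; 7.75% of all genes). Il1r1, the interleukin 1 receptor, rose by 0.75 (limma adjusted p = 0.0169) and did not pass without CGG 3 (0.0606) or CGG-Cit 2 (0.0656). Il18rap and Il1rl2 stood at -0.69 and 0.67 without passing (limma adjusted p = 0.103 and 0.129).

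**Figure D4:**
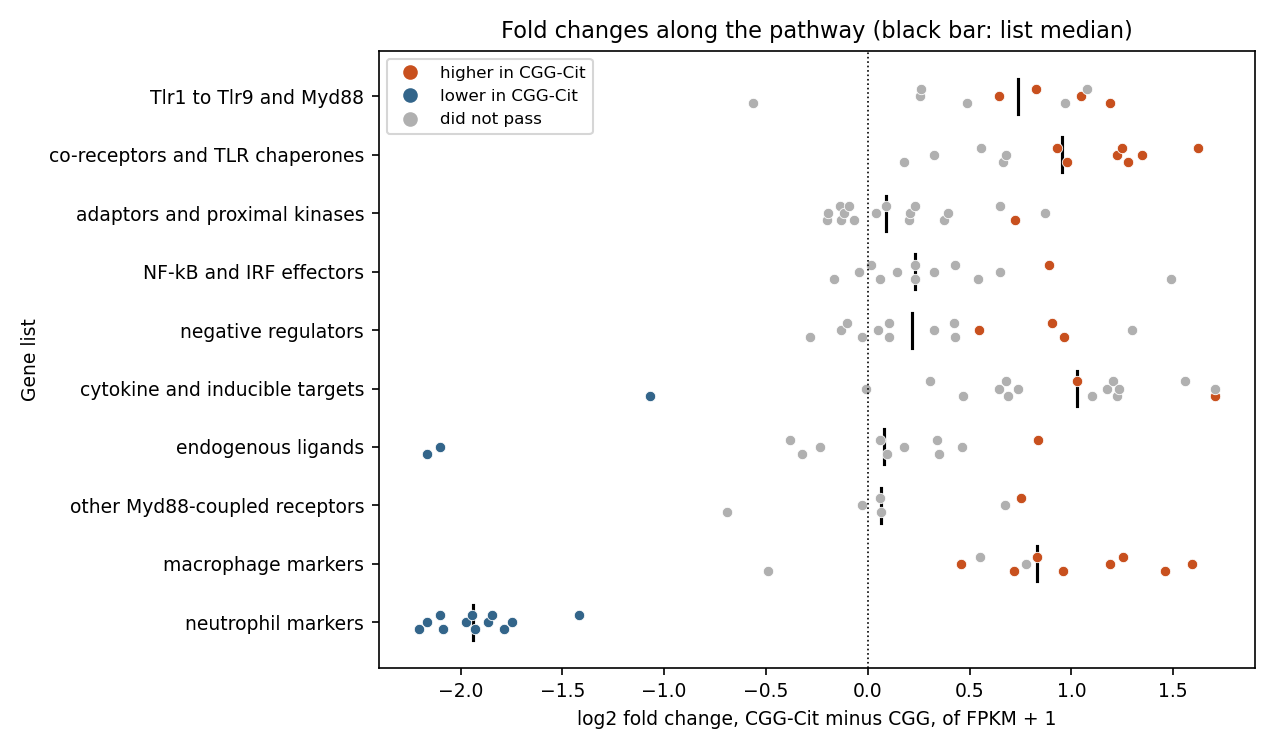
log2 fold change of every tested gene in each pathway list and in the macrophage and neutrophil markers, orange where higher and blue where lower in CGG-Cit at an adjusted p under 0.05, with the list median as a black bar. Medians stand at 0.74 for the receptors with Myd88, 0.95 for co-receptors and chaperones and 0.09 for adaptors and proximal kinases.

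**Figure D5:**
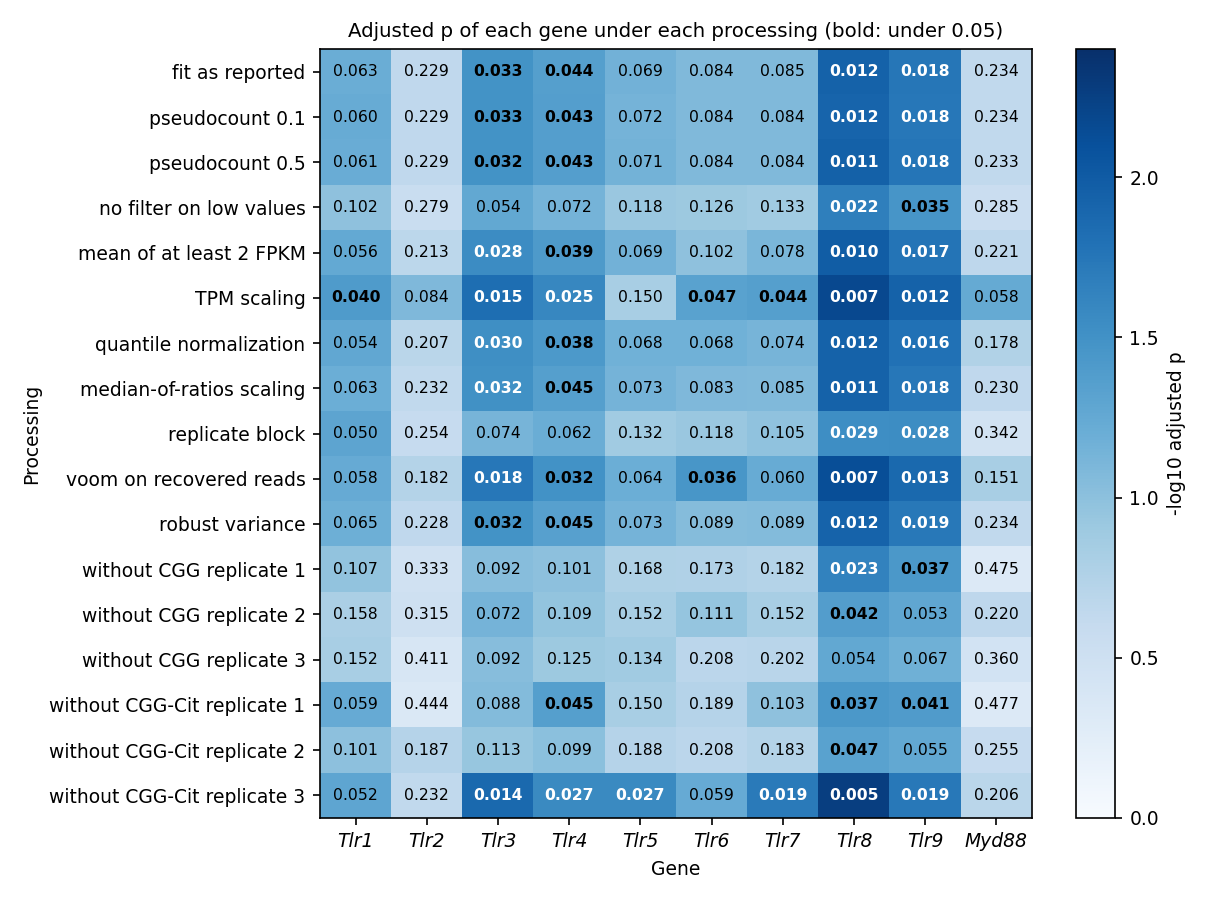
limma adjusted p of each member under the reported fit and 16 alternatives, darker where smaller and bold under 0.05. Tlr8 is bold everywhere except without CGG 3, and Tlr2 and Myd88 are bold nowhere.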

How the data were processed

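RNA was sequenced in read pairs, per the labels' protocols. The deposited values are FPKM per gene and library. Tools listed, without role or order, per the submitters' processing notes were featureCounts 1.5.0-p3, DESeq2 1.20.0 and HISAT2 2.0.5, with the build mRatBN7.2. The annotation release and whether counting used strand: not given in the sources used here. No other gene in the table overlaps a member. The table's coordinates carry no build: its last gene on chromosome 1 ends at 282724300, against 270492571 in RefSeq's GRCr8 gene table, so they cannot be set beside the GRCr8 promoter windows. FPKM times gene length gave whole reads in 100% of values above 0 (within 0.01 reads).

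limma 3.58.1 (R 4.3.3; eBayes with a mean-variance trend) was fitted to log2(FPKM + 1) over all 6 libraries without a block, for genes whose mean reached 0.5 FPKM, with Benjamini-Hochberg adjustment over all genes tested. The fit was also run on simulated counts with known fold changes and the same spread setting for every gene. That setting is simpler than these data, so the run checks the code and not the calls reported here. Means are linear FPKM ± SD. The members, the 21 gene lists (204 symbols, 195 matched, 4 of them through RefSeq synonyms) and the promoter motifs were chosen with earlier results of these data known. Pathway genes were named by a rule: the 3 smallest p of each list. Tlr10, Ly96, Ticam1 and 6 other symbols are not analysed here. Alternatives were 2 pseudocounts (0.1 and 0.5), 2 filters (none, mean of at least 2 FPKM), 3 scalings, robust variance, a replicate block, voom on recovered reads and each library left out. Of the scalings, the one by median ratios between libraries had factors of 1.001 to 1.012, so it nearly repeats the reported fit. Promoter windows are RefSeq's (GRCr8), and all 10 members matched.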

Additional observations from a re-analysis of the deposited data

How the results depend on the processing

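The direction of all 10 members was the same in all 16 alternatives. The number of members called higher, 4 as reported, was 2 without the filter on low values, 7 under TPM scaling, 2 with the replicate number as a block and 0 to 5 when a library was left out, and the number called lower was 0 to 1 when a library was left out. TPM scaling divides by the summed FPKM of a library, 534149 to 542517 in CGG-Cit and 567676 to 655665 in CGG. This raises CGG-Cit values relative to CGG, and the median log2 fold change of all genes moved to 0.16, against 0.0023. Over all genes, 1237 were called higher and 1561 lower as reported, against 2203 and 948 under TPM scaling. With the replicate block 612 were higher and 1055 lower, and without a library 122 to 1312 were higher and 190 to 1622 lower. The cause of the shifts with the block or without a library was not tested. The labels do not say that equal replicate numbers share anything, and same-numbered libraries deviated from their group means with correlations over genes of -0.0956, 0.00165 and -0.0779. Of the alternative values of single genes 456 kept their side of the threshold, 73 lost a call and 12 gained one. Low genes such as Tlr12, with 15 to 126 fragments, are limited by depth.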
